A study of Mus musculus with 24 samples.

Results

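The 41 genes described here encode lysosomal and autophagy proteins. They were chosen by gene symbol and comprise 2 transcription factors (Tfeb and Tfe3), 16 hydrolases and their cofactors, 9 membrane proteins and proton pump components, and 14 autophagy genes. All 41 were among the 55421 genes of the count table, and all 41 were among the 13583 genes with enough counts to be tested. Their RNA was measured by polyA RNA-seq of isolated hepatocytes from 24 male mice, 6 in each of 4 groups. Per the labels, young mice were 6 months old and of the C57BL/6N substrain, and old mice were 24 months old and C57BL/6J. The text of the study states other ages and no substrain, and which holds could not be settled. By the labels, in every comparison of old with young mice the substrain differs as well, an effect that cannot be told apart from age. Each age was kept for 9 weeks on normal diet (ND) or high fat diet (HFD), which took 60% of its energy from fat. The labels describe the ND as a standard chow and the methods of the study describe another diet, so its fat content is left out. No group carried a transgene or drug treatment. Libraries came from 2 batches, with 3 mice of each group in each, except old ND with 2 mice in batch 1 and 4 in batch 2, and held between 9200332 and 22185069 counts each.

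The lysosome is an acidic compartment in which hydrolases break down proteins, lipids, glycans and glycogen, and a proton pump, the V-ATPase, keeps it acidic. In autophagy, cytoplasm, organelles or lipid droplets are enclosed in a double membrane that fuses with the lysosome. This supplies hepatocytes with substrates during fasting and takes part in the breakdown of stored lipid. TFEB and TFE3 are related transcription factors that move to the nucleus when the nutrient sensor mTORC1 is inactive, so their activity is set largely by localization, which RNA levels do not show. They bind a sequence with the core CACGTG in promoters of many lysosomal genes.

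This core was searched for in RefSeq promoter windows of GRCm38 (mm10), each from 250 bases before to 50 bases after a gene start. Windows existed for 33 of the 41 members. CACGTG reads the same on both strands, and 12 of the 33 members (36.4%) held it, compared with 2187 of 27025 genes (8.09%). Those 27025 are all genes with a window, whether or not they had RNA here, and they were not matched to the members for base composition. The longer TCACGTG, searched on both strands and always containing the shorter motif, was present in 10 of the 33 members (30.3%) and in 1160 of all genes (4.29%). The membrane and acidification genes held the core in 4 of 8, the hydrolases in 6 of 14, the autophagy genes in 2 of 9 and the 2 transcription factors in neither. One of the autophagy matches is in Atg7, whose window lies inside the gene, 27999 bases from the GENCODE start. A match describes these letters in this window and was not tested as a binding site.

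The stretches before the start of 3 genes whose levels differed most clearly between groups, Hexa, Ctss and Tfe3, contain no core. For Cd63, which differed as clearly, the window lay within the gene and is not shown. Positions are Hexa chr9:59539290-59539539 (plus strand), Ctss chr3:95526536-95526785 (plus strand) and Tfe3 chrX:7762411-7762559 (plus strand).
Hexa: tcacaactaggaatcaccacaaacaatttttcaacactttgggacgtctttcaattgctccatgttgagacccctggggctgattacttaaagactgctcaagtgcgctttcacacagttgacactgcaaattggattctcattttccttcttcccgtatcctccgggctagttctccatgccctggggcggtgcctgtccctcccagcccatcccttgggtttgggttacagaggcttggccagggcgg
Ctss: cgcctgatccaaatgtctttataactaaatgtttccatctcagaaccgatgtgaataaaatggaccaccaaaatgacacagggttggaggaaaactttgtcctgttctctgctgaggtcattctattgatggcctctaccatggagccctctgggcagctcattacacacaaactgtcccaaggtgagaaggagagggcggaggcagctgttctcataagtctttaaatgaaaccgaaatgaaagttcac
Tfe3: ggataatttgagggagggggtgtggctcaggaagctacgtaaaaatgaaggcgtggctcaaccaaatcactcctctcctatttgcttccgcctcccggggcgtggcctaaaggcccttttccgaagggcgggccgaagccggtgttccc

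Gla, Glb1 and Lamp1 are shown because they hold the core, in capitals, and were chosen after the motifs were counted. Gla lies at chrX:134601126-134601255 (minus strand), Glb1 at chr9:114400828-114401075 (plus strand) and Lamp1 at chr8:13158911-13159160 (plus strand). Lamp1 had 4 copies, Gla 2 and Glb1 1.
Gla: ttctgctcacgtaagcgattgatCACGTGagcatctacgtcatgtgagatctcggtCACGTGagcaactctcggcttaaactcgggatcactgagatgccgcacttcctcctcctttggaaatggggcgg
Glb1: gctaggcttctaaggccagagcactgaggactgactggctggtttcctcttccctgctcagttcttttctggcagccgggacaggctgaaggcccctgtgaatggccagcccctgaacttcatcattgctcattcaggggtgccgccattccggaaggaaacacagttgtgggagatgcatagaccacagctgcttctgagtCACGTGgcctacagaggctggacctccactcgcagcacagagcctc
Lamp1: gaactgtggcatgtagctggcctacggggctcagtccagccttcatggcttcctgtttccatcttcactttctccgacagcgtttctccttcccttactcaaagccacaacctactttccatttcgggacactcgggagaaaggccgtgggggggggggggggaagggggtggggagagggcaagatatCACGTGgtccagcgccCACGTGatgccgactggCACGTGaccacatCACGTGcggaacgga

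Of these 6 genes, Hexa and Ctss without the core, and Gla and Glb1 with it, all had more RNA in old HFD than in young ND mice, whereas Lamp1 with 4 copies did not differ by the test. Across the members with a window, the core was held by 4 of 11 that were higher in that comparison, 0 of 4 that were lower and 8 of 18 that were not called.

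Levels between genes were compared as CPM per kilobase of exon, since counts grow with transcript length. The length used merges the exons of all annotated transcripts of a gene, and the transcripts present in these cells may be shorter. In young ND mice Lamp1, an abundant glycoprotein of the lysosomal membrane, stood at 248 ± 13.6 CPM per kilobase (SD, n = 6). Gabarapl1, which encodes a small protein attached to the autophagosome membrane, stood at 154 ± 28.0, and Psap, the precursor of the saposins that help hydrolases reach sphingolipids, at 147 ± 12.9. The autophagy receptor Sqstm1 (p62) had 131 ± 15.02. The 2 transcription factors were among the lowest, with Tfe3 at 2.45 ± 0.31 and Tfeb at 1.05 ± 0.17 CPM per kilobase, and Cd63, a tetraspanin of late endosomes, was lowest at 0.30 ± 0.20. Among the LC3 and GABARAP genes, Gabarap had 94.0 ± 3.88, Map1lc3a 29.9 ± 2.64 and Map1lc3b 10.4 ± 0.91 on this scale. The order of the last 2 depends on the merged length, 1181 bases for Map1lc3a and 7517 for Map1lc3b. In CPM, Map1lc3b was the higher, at a mean of 78.3 against 35.4.

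**Figure D1:**
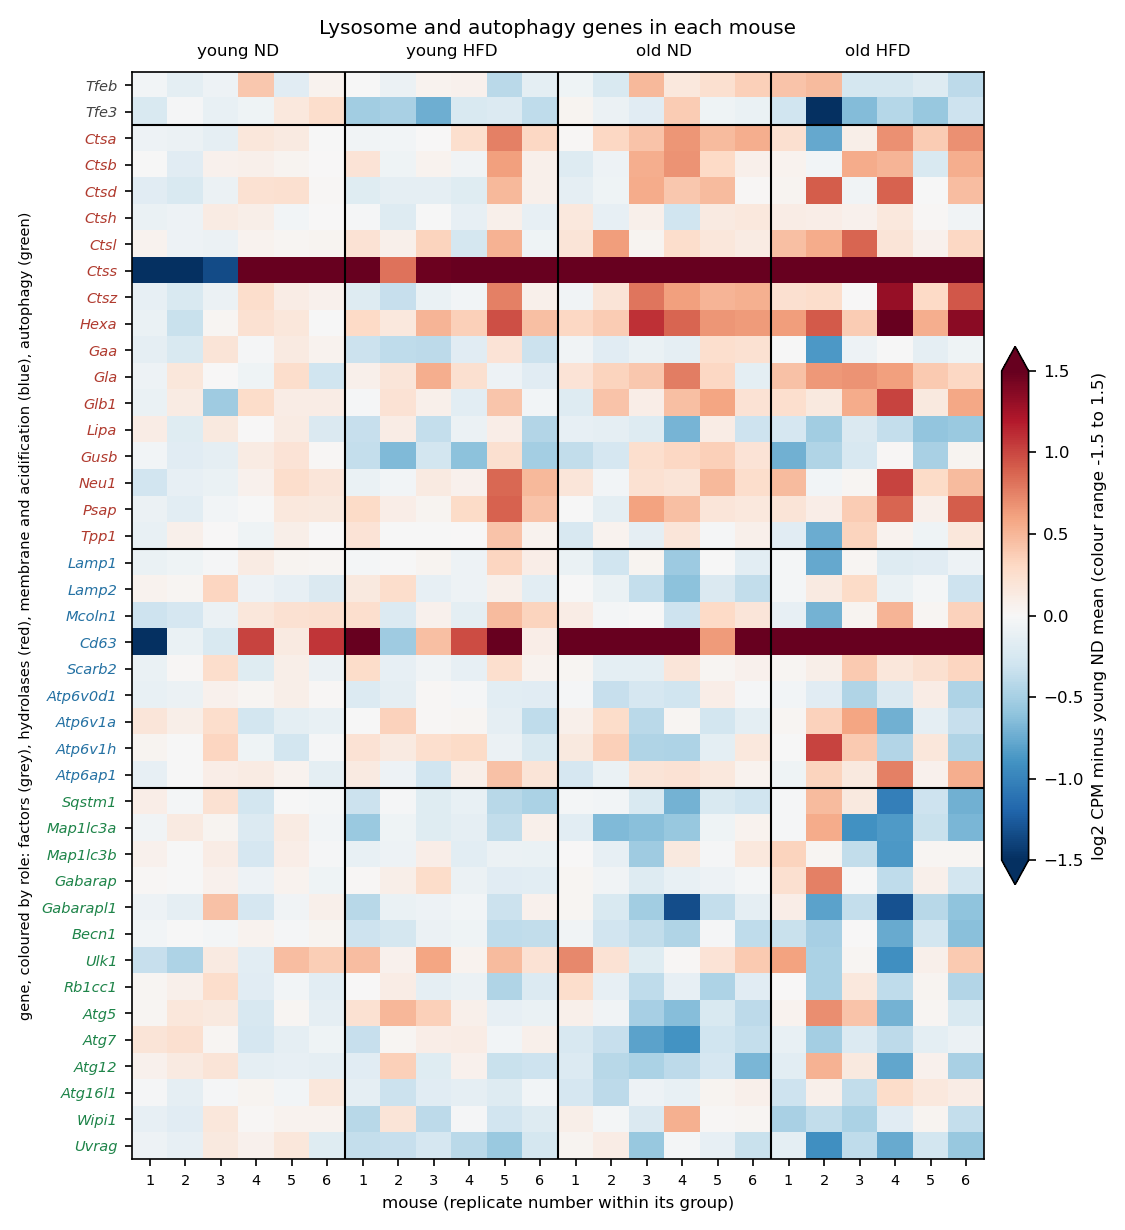
Log2 CPM of the 41 genes (rows, coloured by role) in each of the 24 mice (columns, by group and replicate number), minus the mean of the 6 young ND mice. Colours stop at -1.5 and 1.5, with the cathepsin Ctss and Cd63 beyond 1.5 in every old HFD mouse.

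The combination of age and HFD was compared with neither by setting old HFD against young ND. Of the 41 members, 11 were higher, where 17.3% of all genes tested were called higher, and 5 were lower, where 12.9% were called lower. Those 11 are 9 of 16 hydrolases and cofactors and 2 of 9 membrane and acidification genes, and the 5 are Tfe3, 1 hydrolase and 3 of 14 autophagy genes. Without a filter on low counts 4 were higher among 2934 genes and 5 lower among 1689, and with only the mice of these 2 groups 7 were higher among 1287 genes and 3 lower among 807. The median log2 fold change was 0.41 over the hydrolases, 0.04 over the membrane and acidification genes and -0.19 over the autophagy genes, against 0.04 over all genes tested. Of the 14 autophagy genes, 12 had a negative value, as did 6319 of the 13583 genes tested. The lowest to highest values ran from -0.42 to 4.09 for hydrolases and from -0.53 to 0.10 for autophagy genes. With only the mice of batch 1, 4 members were called among 919 genes in all, and with only batch 2, 1 among 617, but in each batch alone all 16 had the sign seen with both.

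Tfe3 (chromosome X, 7762560 to 7775202) was lower in old HFD mice. Its level in CPM, given as lowest, median and highest of 6 mice, was 19.2, 21.9 and 27.1 in young ND, 13.5, 16.6 and 19.5 in young HFD, 20.03, 21.3 and 29.3 in old ND and 6.84, 15.9 and 18.2 in old HFD. Every old HFD mouse was below every old ND mouse and every young ND mouse, and the young HFD and young ND mice overlapped slightly. The log2 fold change was -0.61 (SE 0.15, adjusted p = 0.00594) between old HFD and young ND, with -0.69 in batch 1 and -0.55 in batch 2. Replicate 2 of old HFD was lowest by far, and without it the value was -0.47.

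Tfeb did not differ between any groups by the test. Its lowest, median and highest CPM were 5.21, 5.65 and 7.83 in young ND, 4.42, 5.70 and 6.16 in young HFD, 5.002, 6.81 and 8.30 in old ND and 4.46, 5.03 and 8.22 in old HFD. The old HFD mice fell into both ends of this range, with the highest 2 in batch 1. The log2 fold change between old HFD and young ND was -0.01 (SE 0.18, adjusted p = 0.979), with 0.31 in batch 1 and -0.39 in batch 2.

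Among the hydrolases Hexa had the smallest adjusted p. It encodes the alpha subunit of beta-hexosaminidase, which cuts the ganglioside GM2 (chromosome 9, 59539540 to 59565109). Hexa stood at 31.5, 40.2 and 46.7 CPM in young ND, 44.4, 52.7 and 78.0 in young HFD, 49.4, 62.5 and 85.0 in old ND and 51.8, 68.4 and 115 in old HFD. All old mice, on either diet, were above all young ND mice. The log2 fold change from young ND to old HFD was 0.93 (SE 0.15, adjusted p = 0.000215), with 0.75 in batch 1 and 1.08 in batch 2, and it was called in every fit tried, 24 that left out 1 mouse each and 11 others.

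Among the other hydrolases and cofactors, Gla, alpha-galactosidase A, stood at 4.60, 5.58 and 6.88 CPM in young ND and 7.12, 8.28 and 9.18 in old HFD, groups that did not overlap, and its log2 fold change was 0.52 (SE 0.16, adjusted p = 0.0156). Glb1, beta-galactosidase, rose by 0.47 on the log2 scale and Neu1, a sialidase, by 0.40. Without 1 mouse, Glb1 was not called in 5 of 24 fits and Neu1 in 4. Both ranges overlapped between the groups, Glb1 at 7.29 to 12.9 CPM in young ND and 11.8 to 21.5 in old HFD, and Neu1 at 27.9 to 40.7 and 33.0 to 68.6. Psap rose by 0.44 (SE 0.14, adjusted p = 0.0169), from 359, 394 and 446 to 422, 489 and 754 CPM. Without the 4 old mice with the highest macrophage marker sums, Glb1, Neu1 and Psap had smaller values of 0.31, 0.29 and 0.25. None of them was called there (adjusted p = 0.209, 0.143 and 0.153).

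Of the 7 cathepsins, 4 rose, where 17.3% of all genes tested were called higher. Ctsl, a cysteine protease abundant in hepatocytes, had 416, 454 and 460 CPM in young ND and 464, 579 and 810 in old HFD, with no overlap (log2 fold change 0.41, SE 0.13, adjusted p = 0.0217), but its value was 0.65 in batch 1 and 0.16 in batch 2, and it was not called without young ND replicate 2 (adjusted p = 0.0563) or replicate 3 (adjusted p = 0.0576). Ctsz, a carboxypeptidase, rose by 0.54 (SE 0.15, adjusted p = 0.00926), from 155, 180 and 218 CPM to 182, 221 and 449, with the highest values in 2 old HFD mice. Without the 4 old mice of highest macrophage sum Ctsz was not called (0.30, adjusted p = 0.116). Ctsd, the main aspartic protease of the lysosome, rose by 0.43 (adjusted p = 0.0456), and without old HFD replicate 2, its highest mouse, the value was 0.25 (adjusted p = 0.172). The call of Ctsd was lost in 14 of the 24 fits without 1 mouse and in 9 of 11 other fits, including that without the 4 old mice of highest macrophage sum (0.34, adjusted p = 0.171). The remaining cathepsins Ctsa, Ctsb and Ctsh had log2 fold changes of 0.26, 0.26 and 0.07 and were not called.

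Lipa, the lysosomal acid lipase that hydrolyses cholesteryl esters and triglycerides, was the only hydrolase that fell (chromosome 19, 34492318 to 34527474). It had 288, 349 and 369 CPM in young ND, 246, 288 and 361 in young HFD, 206, 298 and 362 in old ND and 221, 247 and 287 in old HFD. The old HFD mice lay just below the young ND mice. The log2 fold change was -0.42 (SE 0.13, adjusted p = 0.0202), with -0.39 in batch 1 and -0.47 in batch 2, and without old HFD replicate 5 it was not called (adjusted p = 0.0553). Gusb (beta-glucuronidase), Gaa (acid alpha-glucosidase, which degrades glycogen) and Tpp1 (a tripeptidyl peptidase) had values of -0.29, -0.17 and -0.04 and were not called.

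Ctss, a cathepsin typical of antigen-presenting cells, and Cd63 had the largest fold changes. Ctss stood at 0.05, 2.26 and 6.69 CPM in young ND, 2.204, 11.2 and 21.03 in young HFD, 5.20, 21.3 and 123 in old ND and 9.77, 27.6 and 77.9 in old HFD. Cd63 stood at 0.14, 0.89 and 1.98 CPM in young ND, 0.57, 1.54 and 4.79 in young HFD, 1.43, 4.09 and 13.4 in old ND and 2.90, 4.87 and 12.2 in old HFD. For both genes every old HFD mouse was above every young ND mouse. The log2 fold change of Ctss was 4.09 (SE 0.78, adjusted p = 0.000865), with 6.96 in batch 1 and 3.20 in batch 2, and that of Cd63 was 2.61 (SE 0.52, adjusted p = 0.00124), with 3.001 and 2.34. The Ctss counts behind the young ND values were low, between 1 and 6 in each of the 3 mice of batch 1. A processed copy, Cd63-ps, had 0 to 5 counts per mouse, and how reads matching both copies were counted was not given in the sources used here, so the level of Cd63 is uncertain.

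Markers of other cell types moved with these 2 genes. The summed level of 12 macrophage and Kupffer cell markers was 2.22, 31.7 and 103 CPM in young ND, 19.2, 142 and 259 in young HFD, 79.1, 148 and 1651 in old ND and 113, 176 and 859 in old HFD. Old HFD over young ND, 11 of the 12 were called higher, and old ND over young ND, 12 of 12. The 3 young ND mice of batch 1 were lowest, at 2.22 to 5.83 CPM, and old ND replicates 3 and 4 and old HFD replicates 4 and 6, all of batch 2, were highest and were also the highest for Ctss and Cd63. Within each old group, 1 of these 4 mice was also highest for Hexa, Ctsz, Psap and Atp6ap1, and lowest for Becn1 and Gabarapl1. In old HFD replicate 4 was highest for Glb1 and Neu1 too. There, other mice were highest for Ctsl, Ctsd and Gla and lowest for Lipa, Tfe3 and Uvrag. Between old HFD and young ND, 6 of 6 sinusoidal endothelial markers and 4 of 6 stellate and matrix markers were also called higher, as were 3 of 3 other leukocyte markers with enough counts to be tested. The 8 hepatocyte markers were present in every mouse, with sums between 54642 and 164247 CPM, and 1 of them was called higher and 2 lower in old HFD over young ND. The part of these cells in the member values was not tested, and in bulk RNA fewer cells of a type and less RNA per cell cannot be told apart. Without the 4 old mice with the highest macrophage sums, an analysis added after the sums were seen, 8 members were called in old HFD over young ND, 5 higher among 1443 genes and 3 lower among 1162. Those that rose were Hexa at 0.68, Ctss at 3.28, Cd63 at 2.09, Ctsl at 0.46 and Gla at 0.49, and those that fell were Tfe3 at -0.69, Uvrag at -0.43 and Lipa at -0.41. Becn1 (-0.27, adjusted p = 0.0816) and Ctsz (0.30, adjusted p = 0.116) were among those no longer called. The old mice kept had macrophage sums from 79.1 to 191 CPM, so this fit has fewer mice but does not make the sums equal between groups.

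**Figure D2:**
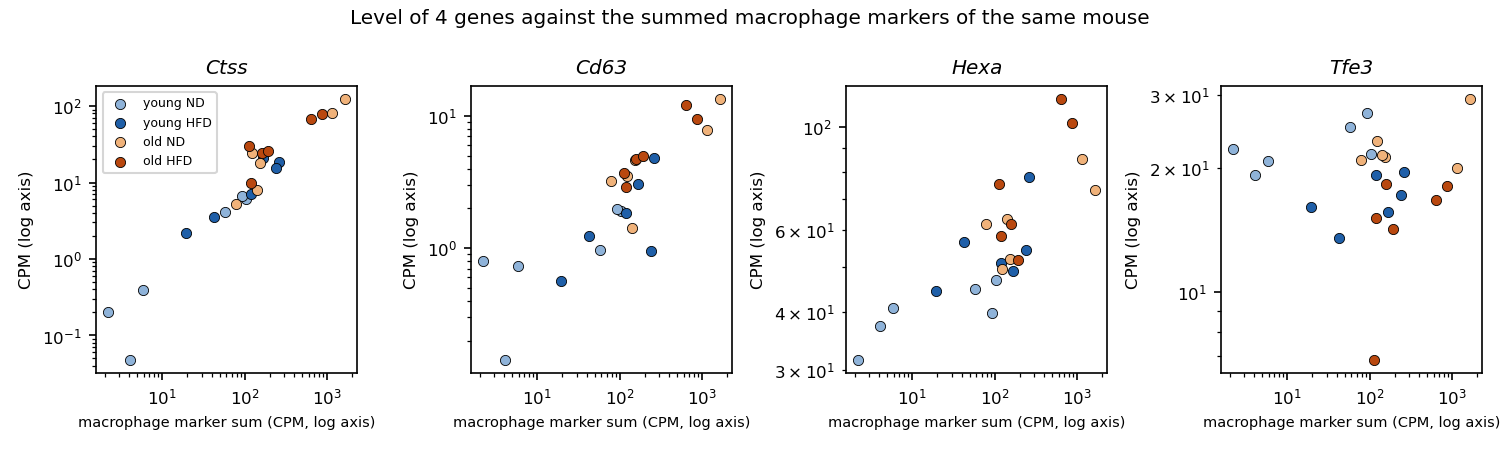
CPM of Ctss, Cd63, Hexa and Tfe3 (vertical, log axis) against the summed CPM of 12 macrophage and Kupffer cell markers (horizontal, log axis), 1 point per mouse coloured by group. The 4 old mice with sums from 640 to 1651 are also highest for Ctss and Cd63, and the lowest Tfe3 point, at 6.84 CPM, is a mouse with a sum of 113.

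The membrane and acidification genes otherwise differed little. Atp6ap1, an accessory subunit of the V-ATPase, rose by 0.31 (SE 0.12, adjusted p = 0.0476), and in 15 of 24 fits that left out 1 mouse it was not called. Without the 4 old mice of highest macrophage sum its value was 0.16 (adjusted p = 0.366). The pump subunits Atp6v0d1, Atp6v1a and Atp6v1h had log2 fold changes of -0.19, -0.02 and 0.16, the membrane proteins Lamp1 and Lamp2 -0.18 and -0.01, the calcium channel Mcoln1 0.04 and Scarb2, the receptor that carries glucocerebrosidase to the lysosome, 0.21. None of those 7 was called.

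In the autophagy group 3 of 14 genes fell, where 12.9% of all genes tested were called lower, and 2 of them are partners in one lipid kinase complex. Becn1 encodes Beclin 1 of the class III phosphatidylinositol 3-kinase complex and stood at 47.3, 48.1 and 50.3 CPM in young ND, 37.2, 39.7 and 46.5 in young HFD, 35.5, 38.6 and 48.0 in old ND and 28.6, 36.3 and 48.9 in old HFD. The 6 young ND mice lay close together and nearly all others lay below them. Uvrag, which binds Beclin 1, had 28.4, 32.3 and 36.4 CPM in young ND, 21.9, 25.3 and 27.02 in young HFD, 21.8, 30.6 and 34.8 in old ND and 16.98, 23.2 and 29.2 in old HFD. Between old HFD and young ND, Becn1 fell by 0.40 (SE 0.11, adjusted p = 0.00980) and Uvrag by 0.49 (SE 0.13, adjusted p = 0.00622) on the log2 scale. Gabarapl1 fell by 0.53 (SE 0.19, adjusted p = 0.0390), from 257, 292 and 416 to 123, 215 and 328 CPM. It was not called in 9 of the 24 fits without 1 mouse and in 7 of 11 other fits. Without the 4 old mice of highest macrophage sum, Becn1 (-0.27, adjusted p = 0.0816) and Gabarapl1 (-0.37, adjusted p = 0.101) were not called. Uvrag still was (-0.43, adjusted p = 0.0344).

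The other 11 autophagy genes were not called between old HFD and young ND. The initiating kinase Ulk1 and its partner Rb1cc1 had log2 fold changes of -0.01 and -0.17. The conjugation genes Atg5, Atg7, Atg12 and Atg16l1 had 0.07, -0.24, -0.08 and -0.0029. Map1lc3a, Map1lc3b and Gabarap, whose proteins are attached to the growing membrane, had -0.29, -0.10 and 0.10, and Sqstm1 and the membrane-binding Wipi1 had -0.21 and -0.30.

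**Figure D3:**
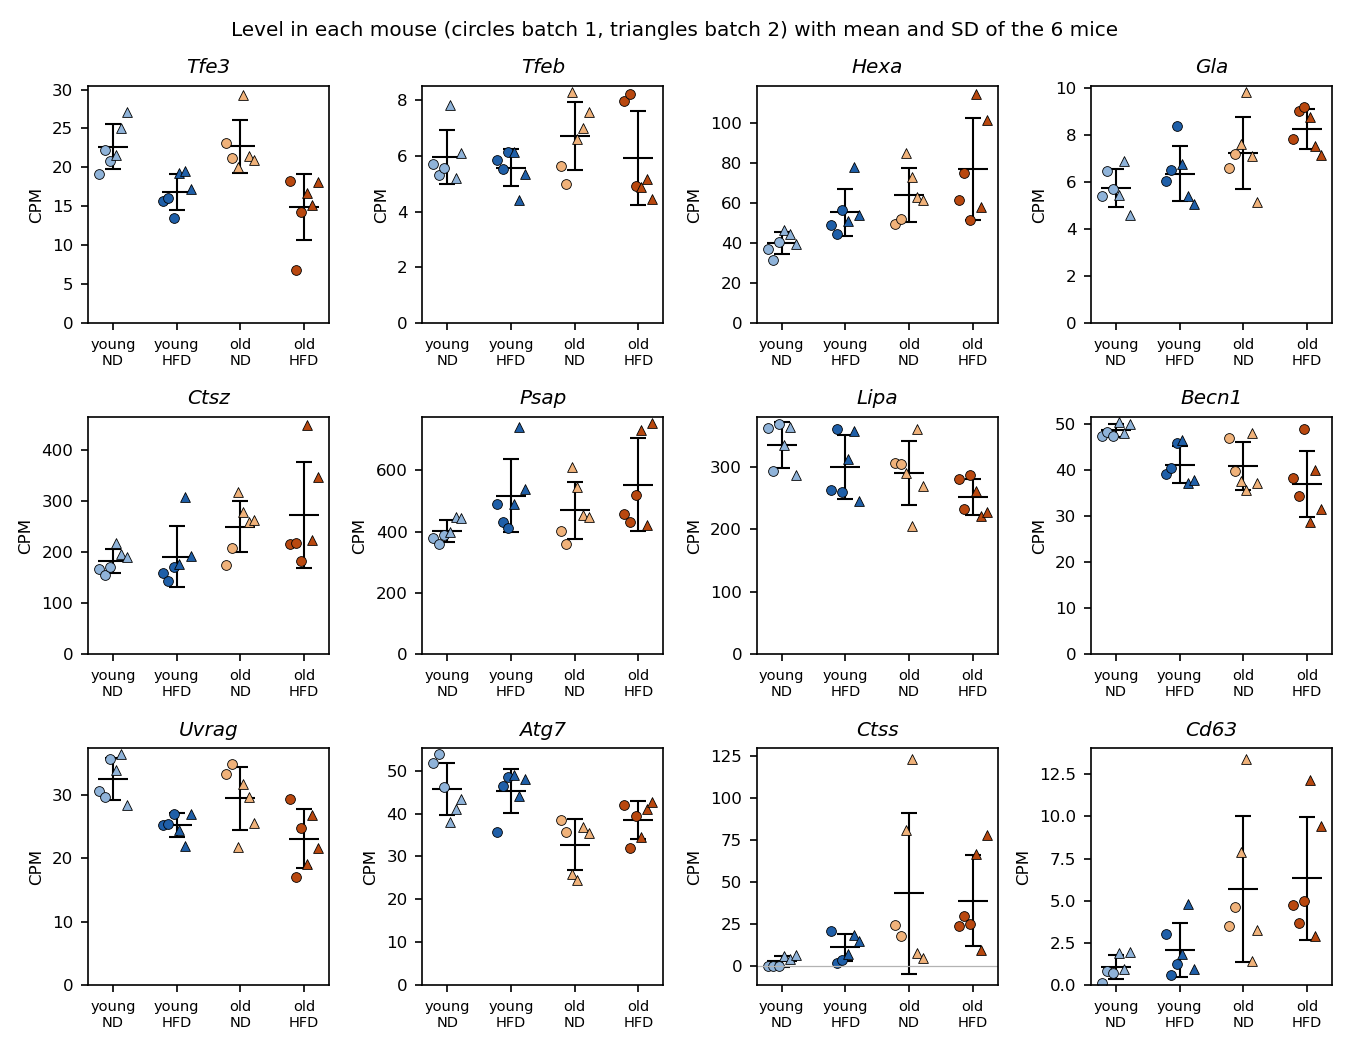
CPM of 12 of the genes in each mouse by group (circles batch 1, triangles batch 2), with the mean and SD of the 6 mice as bars. Tfe3 of all 6 old HFD mice lies below all old ND mice, and the young ND values of Becn1 lie between 47.3 and 50.3.

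For 7 members the groups did not overlap between old HFD and young ND. The 5 higher were Hexa, Ctss, Cd63, Gla and Ctsl, where 2.99% of all genes had all mice of one group above the other, and the 2 lower were Tfe3 and Lipa, where the share was 4.27%.

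To separate the factors, HFD was first compared with ND within each age. In young mice no member was called by edgeR in the model of all 24 mice, whereas 1.91% of all genes were higher and 1.59% lower. Unadjusted, 7 members had p under 0.05, as did 2885 of the 13583 genes tested, and DESeq2 called 2 members, Ctss and Hexa, among 1219 genes in all. With edgeR on only the mice of these 2 groups, 6 members were called among 2302 genes, namely Tfe3, Hexa, Uvrag, Ctss, Psap and Becn1. Without a filter on low counts 2 were called among 1473 genes. The 12 macrophage markers had a median log2 fold change of 2.22 in this comparison, with 1 called higher, and their part in the member values was not tested. The largest values among those 7 were Ctss at 2.37 (SE 0.76, adjusted p = 0.0771), Hexa at 0.47 (SE 0.15, adjusted p = 0.0727), Tfe3 at -0.43 (SE 0.15, adjusted p = 0.106), Uvrag at -0.37 (SE 0.13, adjusted p = 0.0923) and Psap at 0.35 (SE 0.14, adjusted p = 0.133). Becn1 and Uvrag of all 6 young HFD mice lay below all young ND mice, where 3.06% of all genes had such a separation downward. The median over the 14 autophagy genes was -0.13 and over the hydrolases 0.13.

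In old mice 1 member was called on HFD. Tfe3 fell by 0.58 (SE 0.16, adjusted p = 0.0415), where 1.64% of all genes were lower and 1.37% were higher, and its groups did not overlap, as for 0.788% of all genes in that direction. This call was lost in 16 of the 24 fits without 1 mouse, where adjusted p ran from 0.0170 to 0.115 and the value from -0.68 to -0.45. Without the 4 mice of highest macrophage sum the value was -0.65 (adjusted p = 0.0685). Other members of smallest p were Uvrag at -0.37 (SE 0.13, adjusted p = 0.0982), Wipi1 at -0.37 (SE 0.13, adjusted p = 0.109) and Atp6ap1 at 0.31 (SE 0.12, adjusted p = 0.126). The macrophage markers did not pass the test in this comparison (0 of 12, median -0.24).

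Age was then compared within each diet. On ND 3 members rose, where 7.26% of all genes were higher, and 1 fell, where 1.24% were lower. Ctss rose by 3.94 (SE 0.77, adjusted p = 0.00385) and Cd63 by 2.33 (SE 0.52, adjusted p = 0.00724), together with the macrophage markers as described. Hexa rose by 0.60 (SE 0.15, adjusted p = 0.0138) with no overlap of the groups, as for 2.08% of all genes upward. Atg7, the activating enzyme of both autophagy conjugation systems, fell by 0.46 (SE 0.12, adjusted p = 0.0199), and was not called without old ND replicate 3 (adjusted p = 0.0529) or replicate 4 (adjusted p = 0.0639).

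The Atg7 levels were 38.1, 44.8 and 53.8 CPM in young ND, 35.6, 47.2 and 49.1 in young HFD, 24.4, 35.5 and 38.6 in old ND and 31.9, 40.2 and 42.6 in old HFD. Old ND mice were lowest, and replicates 3 and 4, the 2 with the highest macrophage sums, were the lowest of them. Atg12, a ubiquitin-like protein that Atg7 activates, had a log2 fold change of -0.35 (SE 0.14, adjusted p = 0.143), with all old ND mice below all young ND mice, a separation seen in 1.72% of all genes downward. Without the 4 mice of highest macrophage sum none of the 4 calls remained, with Ctss at 2.56 (adjusted p = 0.152), Cd63 at 1.69 (adjusted p = 0.156), Hexa at 0.51 (adjusted p = 0.0681) and Atg7 at -0.30 (adjusted p = 0.234). In that fit 94 of all genes were called for age on ND.

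On HFD no member was called for age by edgeR in the model of all 24 mice, with 1.82% of all genes higher and 0.42% lower. Unadjusted, 7 members had p under 0.05, as did 2848 of the 13583 genes tested, and DESeq2 called 3 members, Ctsz, Hexa and Cd63, among 850 genes in all. Without a filter on low counts edgeR called Ctss at 1.67 and Cd63 at 1.54, among 1235 genes in all. Without old HFD replicate 5 it called 4 members, and the calls over all genes in that fit are not given here. The macrophage markers had a median log2 fold change of 1.09, with 0 of 12 called by edgeR. Ctsz had a log2 fold change of 0.49 (SE 0.15, adjusted p = 0.0714), Cd63 1.58 (SE 0.50, adjusted p = 0.0838) and Hexa 0.46 (SE 0.15, adjusted p = 0.0874). Tfe3 had -0.18, and -0.04 without old HFD replicate 2.

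Whether HFD acted differently in old and young mice was tested by the age by diet interaction. No member was called, nor was any of the 13583 genes tested (0%), and DESeq2 called 7 genes but no member. Without a filter on low counts edgeR called 587 genes, among them 1 member, Ctss at -2.23. Unadjusted, 1247 of the 13583 genes had p under 0.05 and 2 members did, Atg16l1 at 0.32 (SE 0.13) and Ctss at -2.22 (SE 0.99), both with an adjusted p of 0.531. For Tfe3 the interaction was -0.15 (SE 0.22), so its effect of HFD was not shown to differ between ages. The comparisons share groups, so each gene's values across them are not independent.

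**Figure D4:**
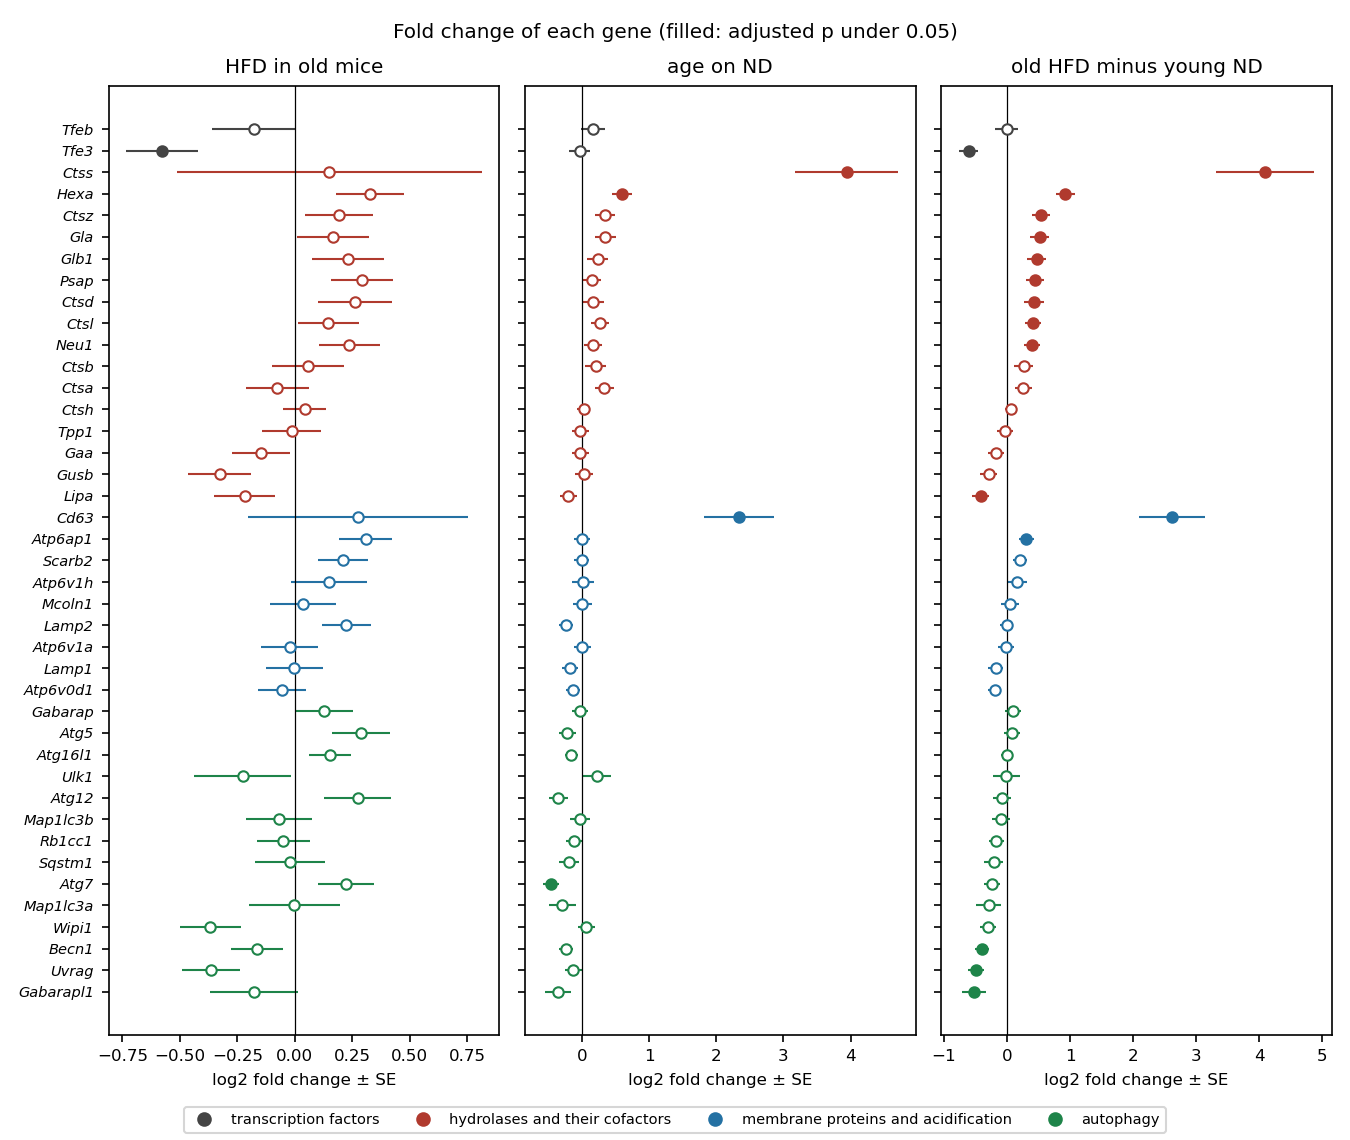
Log2 fold change with its standard error (horizontal) of each of the 41 genes in 3 comparisons, coloured by role, with filled points for an adjusted p under 0.05. In old HFD minus young ND 12 of 16 hydrolases lie to the right of 0 and 12 of 14 autophagy genes to the left, most autophagy points unfilled. Horizontal scales differ between panels.

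A wider list of 108 further lysosome and autophagy genes was counted in the same fits, of which 107 were in the table and 105 were tested. Between old HFD and young ND 20 of them rose and 17 fell, where 17.3% of all genes tested were higher and 12.9% lower, shares close to those of the list. By role, 10 of 31 hydrolases and cofactors rose and 2 fell, 8 of 29 membrane, sorting and acidification genes rose and 2 fell, and 2 of 45 autophagy genes rose and 13 fell. The medians were 0.27, 0.14 and -0.16 on the log2 scale, in that order. The V-ATPase subunit Atp6v0d2 rose by 2.98 (SE 0.41, adjusted p = 6.30e-05), but old HFD replicate 4 had 1.18 CPM, within the young ND range of 0.43 to 1.61. Atg13, a partner of Ulk1, fell by 0.78 (SE 0.12, adjusted p = 0.000123), with 57.5, 67.2 and 69.9 CPM in young ND and 29.6, 36.5 and 50.1 in old HFD.

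On HFD in young mice 4 genes of the wider list rose and 3 fell, beside 1.91% and 1.59% of all genes. Sort1, a sorting receptor of the Golgi and endosomes, fell by 1.68 (SE 0.30, adjusted p = 0.00314), and Atg16l2 fell by 1.09 (SE 0.20, adjusted p = 0.00413). In old mice 1 rose and 4 fell on HFD, beside 1.37% and 1.64% of all genes, with Atg16l2 again at -1.09 (SE 0.20, adjusted p = 0.00571), Tmem192, a lysosomal membrane protein, at 0.69 (SE 0.15, adjusted p = 0.0201) and Sort1 at -1.26 (SE 0.30, adjusted p = 0.0252). Sort1 and Atg16l2 were thus lower on HFD at both ages. For age on ND 7 of the 105 rose, a share no higher than the 7.26% of all genes, and 0 fell (1.24% of all genes), with Atp6v0d2 at 2.32 (SE 0.41, adjusted p = 0.00303) and the lysosomal phospholipase Pla2g15 at 0.71 (SE 0.17, adjusted p = 0.0122). For age on HFD 3 rose and 1 fell, beside 1.82% and 0.42% of all genes, led by the sulfatase Galns at 1.43 (SE 0.23, adjusted p = 0.00442), the cholesterol carrier Npc2 at 0.54 (SE 0.13, adjusted p = 0.0356) and Atg13 at -0.47 (SE 0.12, adjusted p = 0.0371). No gene of the wider list was called for the interaction by edgeR, and 8 of 105 had an unadjusted p under 0.05, beside the 1247 of 13583 over all genes.

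**Figure D5:**
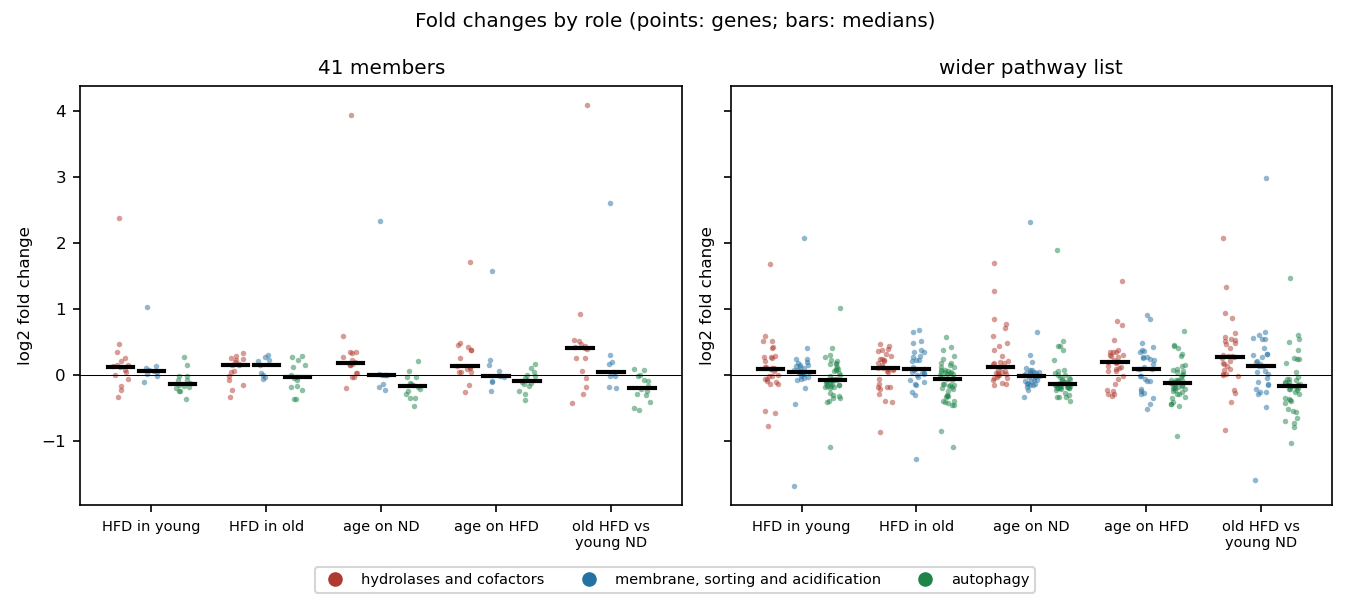
Log2 fold change of each gene (points) in the 5 comparisons between groups, with the median of each role as a bar, for the members without the 2 transcription factors (left) and the wider list (right). Between old HFD and young ND the member medians were 0.41 for hydrolases and -0.19 for autophagy genes, and 0.27 and -0.16 in the wider list.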

How the data were processed

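Per the submitters' processing notes and the study's methods, the authors aligned reads to mm10 with STAR 2.7.3a and counted reads per gene with HTSeq 0.11.2. They deposited these raw counts and FPKM values adjusted between batches with ComBat, which appears only in the name of that table. How duplicates and strand were treated is not given in the sources used here. The deposited FPKM values behave as if divided by the genomic span of a gene (ratio to CPM per kilobase of span 0.977 to 1.52 over members). Levels between genes therefore use CPM per kilobase of exon from GENCODE M21, with the exons of all annotated transcripts merged. No column belonged to an unlabelled sample.

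Mice were grouped by the labels. Counts of all 24 mice were fitted in 1 model with edgeR 4.0.16 (R 4.3.3), using TMM scaling, filterByExpr, group and batch, with quasi-likelihood F tests adjusted by Benjamini-Hochberg over all 13583 genes tested, at 0.05. Every adjusted p given here is from that test unless named otherwise. CPM were scaled by TMM, and log2 CPM used a prior count of 2. The labels do not say beyond the replicate numbers that samples are separate cultures or pools, so p-values cover the spread between these mice. The lowest chi-square per degree of freedom between 2 mice of a group was 16.1 over 60 pairs, so none was a library counted again. The procedure was also run on counts simulated without a batch effect, for some of the comparisons only. Its outcome is not given here. Alternatives were DESeq2 1.42.0, RLE scaling, no count filter, no batch term, only the 2 groups compared, each batch alone, the replicate number as a block, limma 3.58.1 on log2(FPKM + 1) and log2(FPKM + 0.1) for genes with at least 0.5 FPKM in 6 mice, and leaving out each mouse.

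The members and lists, and the tests, were chosen with earlier results of these data known. Genes named are Tfeb, Tfe3, the called members (up to 10 per comparison by adjusted p), the 2 with the largest fold change and the 1 with the highest mean FPKM in each role, and up to 3 called genes per comparison of the wider list, of which 1 is not reported here, besides others named for completeness after their values were seen. Sequences were taken from RefSeq promoter windows of GRCm38, and LC3 and GABARAP proteins are not analysed here.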

Additional observations from a re-analysis of the deposited data

Results flagged for a closer look

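Over the 17 members named by rule, 68 sets of 6 mice were checked for a mouse whose gap to its nearest neighbour exceeded 0.625 of the range, a limit that chance alone passes in about 1 of 20 sets, and 3 were found. Tfe3 in old HFD replicate 2 stood at 2.80 log2 CPM, 0.747 of the range below the next mouse at 3.85. Lamp1 in the same mouse stood at 8.61 log2 CPM, with the next at 9.18. Atg7 in young HFD replicate 1 stood at 5.16 log2 CPM, with the next at 5.47. Without old HFD replicate 2 Tfe3 kept its call between old HFD and young ND.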

How the results depend on the processing

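Counts of called members are given in the order HFD in young mice, HFD in old mice, age on ND, age on HFD, old HFD over young ND and interaction, and were 0, 1, 4, 0, 16 and 0. DESeq2 gave 2 for HFD in young mice and 3 for age on HFD, among 1219 and 850 genes in all. Without a count filter they were 2 for HFD in young mice, 2 for age on HFD, 9 for old HFD over young ND and 1 for the interaction. That fit called 1473, 1235, 4623 and 587 genes in all in these comparisons. Without the batch term HFD in old mice had 0, among 266 genes in all. With only the 2 groups compared there were 6 for HFD in young mice, 0 for HFD in old mice, 7 for age on ND and 10 for old HFD over young ND, where 2302, 15, 1331 and 2094 of all genes were called, against 475, 409, 1155 and 4100 with all mice. Batch 1 alone, with fewer mice, gave 1 for HFD in young mice, 0 for HFD in old mice, 1 for age on ND and 4 for old HFD over young ND. It called 130, 15, 93 and 919 genes in all there. Batch 2 alone, also with fewer mice, gave 0 for HFD in old mice (16 genes in all), 0 for age on ND (2 genes) and 1 for old HFD over young ND. On FPKM, limma gave 0 for HFD in old mice with either pseudocount and 1 for age on HFD with 0.1. Without the 4 old mice of highest macrophage sum (added after seeing the data) they were 2, 0, 0, 0, 8 and 0. Leaving out 1 mouse gave 0 to 3, 0 to 1, 3 to 5, 0 to 4, 11 to 16 and 0. For limma and for leaving out 1 mouse the calls over all genes are not given here, so a change particular to the members cannot be told apart. The causes of these changes were not tested.

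Replicate numbers did not pair the mice (mean correlation of same-numbered mice 0.18 over 36 pairs, lowest -0.32, and -0.00199 within batches). Fitting the replicate block, without batch, gave 0, 1, 4, 0, 14 and 0 called members, among 283, 445, 1350, 131, 3478 and 1 genes in all. Fold changes were recomputed for called members in the comparisons where they were called, and for Tfeb and Tfe3 in every comparison between groups. Of these values, 849 kept their side of the threshold, 148 lost and 2 gained a call. Calls gained by other members or in other comparisons are not in these numbers, so losses and gains cannot be weighed against each other. No called value changed sign, whereas 28 values of Tfeb and Tfe3 in comparisons where they were not called did. Most often lost without 1 mouse were Tfe3 for HFD in old mice and, for old HFD over young ND, Ctsd, Atp6ap1 and Gabarapl1. Low counts limit Ctss and Cd63 in young ND.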
